A study of Mus musculus with 6 samples.

Results

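A group of 9 enzymes that remove RNA-DNA hybrids, or keep them from forming, was followed in mouse neural stem cells with and without a conditional deletion of Phf2, which encodes a histone lysine demethylase. The 9 genes, Rnaseh1, Rnaseh2a, Rnaseh2b, Rnaseh2c, Aqr, Dhx9, Ddx5, Top1 and Xrn2, were picked by symbol from the 24503 gene symbols of the count table. The rule uses names and no measured value, but the list was chosen with earlier results of these data known. RNA-seq was run on 6 libraries of primary neural stem cells isolated from embryonic cortex at E13.5. The cells had been enriched as neurospheres and then grown on laminin with FGF (10 ng/mL) and EGF (20 ng/mL). Control cells (WT, n = 3 libraries) carried floxed Phf2 alleles (Phf2flox/flox) and no Cre. Knockout cells (KO, n = 3 libraries) carried the same floxed alleles and the Nestin-Cre transgene (B6.Cg-Tg(Nes-cre)1Kln/J), in which Nestin regulatory sequences drive Cre in neural progenitors. Both groups thus share the floxed alleles, and because no group carried Cre without floxed alleles, an effect of the transgene and an effect of the deletion cannot be told apart.

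An R-loop forms when a nascent RNA pairs with its DNA template behind RNA polymerase and leaves the other DNA strand unpaired. Ribonucleases H1 and H2 cut the RNA of such hybrids, helicases unwind them, topoisomerase I relaxes the negative supercoils that favour their formation, and the exonuclease Xrn2 degrades the RNA left on the polymerase after cleavage at the end of a gene. In dividing progenitor cells, hybrids that persist are known to obstruct replication forks, and several of these enzymes also act in splicing, transcription termination or DNA repair.

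Total counts per library ranged from 33413444 to 46890314, and 13683 genes passed the filter on low counts, all 9 enzymes among them. Their counts ranged from 292 (Rnaseh1) to 53207 (Ddx5) per library, so counting error was at most 5.85% of any value. Levels are given as CPM, counts relative to a library total scaled by the TMM method. Differences are log2 fold changes fitted by edgeR and tested by quasi-likelihood, with p-values adjusted by Benjamini-Hochberg over all 13683 genes. Phf2 was at 109, 90.4 and 77.8 CPM in WT libraries 1 to 3 and at 56.3, 48.1 and 48.8 CPM in KO libraries 1 to 3, a log2 fold change of −0.85 ± 0.15 (SE) with an edgeR adjusted p of 0.182, or 0.000123 with the replicate number as a block. All 3 KO libraries were below all 3 WT libraries. The counts cover the whole gene, and which part was deleted is not stated in the labels. All 10 neural stem cell markers were at 1 CPM or more in every library, with summed levels from 9673 to 11398 CPM. Most of that sum was Vim (4069.9 to 5116) and Fabp7 (1765 to 2313), while Hes5 ranged from 18.3 to 312 CPM and Pax6 from 34.1 to 44.9. Of 8 markers of the oligodendrocyte lineage, 7 were at 1 CPM or more in every library, with sums from 3390 to 4198 CPM that came mostly from Olig1 (1903 to 2688) and Olig2 (1044 to 1254). Summed markers stayed at or under 1.22 CPM for microglia (6 genes, Aif1 at 0 counts), 2.07 for endothelium (5 genes, Cdh5 at 0), 0.297 for blood (4 genes, Hbb-bs at 0) and 2.78 for mesenchyme (6 genes, Dcn at 0). The libraries carry replicate numbers 1 to 3 in both groups, and those numbered 1 stood apart from those numbered 2 and 3 in WT and in KO. The median chi-square per gene between 2 libraries of a group was 22.6 to 34.5 where 1 of them was numbered 1, against 5.25 for WT 2 with WT 3 and 1.02 for KO 2 with KO 3. The comparison of KO with WT was therefore also fitted with the replicate number as a block, and with the counts of KO 2 and KO 3 summed.

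Promoter windows of Dhx9, Top1 and Ddx5 are shown as examples. Dhx9 and Top1 separated the libraries numbered 1 from the others and Ddx5 did not. Aqr, Xrn2 and Rnaseh2a also separated them and have windows, which are not printed. The sequences are those of RefSeq on GRCm38.p6, in the direction of transcription. They come from windows of 250 bases before to 50 after a start given there for the gene. Windows were given for 7 of the 9 genes (9 windows, 3 of them for Ddx5), and Rnaseh1 and Rnaseh2b had none. Only the bases before the start that lie outside annotated exons are printed, and capitals mark matches to the motif words. The Dhx9 stretch is chr1:153487661-153487910 (minus strand), the Top1 stretch chr2:160645647-160645887 (plus strand), and the Ddx5 stretch chr11:106788533-106788698 (minus strand), which belongs to the window with the most matches among the 3 of Ddx5. They end 0, 9 and 38 bases before the start, from which positions are counted. That Ddx5 window (106788445-106788744) lies inside the annotated gene, which begins at 106789185. The window at that end (106789136-106789435) held only an NFY word. The windows of Aqr (114175290-114175589) and Rnaseh2a (84966027-84966326) also lie inside their genes, which begin at 114187024 and 84969767.
Dhx9: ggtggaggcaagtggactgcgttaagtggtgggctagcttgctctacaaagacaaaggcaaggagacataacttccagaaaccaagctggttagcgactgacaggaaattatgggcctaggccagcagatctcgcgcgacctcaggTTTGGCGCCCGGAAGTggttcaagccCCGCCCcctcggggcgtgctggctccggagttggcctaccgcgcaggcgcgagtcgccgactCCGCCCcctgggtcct
Top1: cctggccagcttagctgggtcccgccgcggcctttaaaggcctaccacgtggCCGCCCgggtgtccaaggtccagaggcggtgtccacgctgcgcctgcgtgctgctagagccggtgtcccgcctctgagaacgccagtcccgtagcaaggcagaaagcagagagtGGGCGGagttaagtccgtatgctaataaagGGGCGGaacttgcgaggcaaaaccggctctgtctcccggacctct
Ddx5: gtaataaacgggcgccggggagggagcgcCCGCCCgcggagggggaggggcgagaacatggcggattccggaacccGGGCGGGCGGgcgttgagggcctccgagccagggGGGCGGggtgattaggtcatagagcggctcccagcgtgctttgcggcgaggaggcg

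A set of 7 motifs was searched on both strands of all 32851 windows. Of these windows, 3.77% held an E2F word (TTTCGCGC, TTTGGCGC, TTCCCGCC or TTGGCGGG), 3.89% the ETS word CCGGAAGT, 35.7% the GC box GGGCGG, 37.4% the NFY word CCAAT, 13.6% the TATA word TATAAA, 2.71% the NRF1 word GCATGCGC and 1.4% the YY1 word AAGATGGCG. The E2F word TTGGCGGG shares letters with the GC box. Of the 7 genes with a window, Dhx9 was the 1 with an E2F word, which began 104 bases before the start and was followed directly by an ETS word at 96 bases, with GC boxes at 78 and 16 bases. ETS words were also found for Aqr and Xrn2. Top1 had GC boxes at 198, 84 and 54 bases before the start. The Ddx5 window shown had GC boxes at 175, 128, 124 and 94 bases, of which the pair at 128 and 124 overlap, and a TATA word at 30 bases that lies in an annotated exon and is not printed. The NFY word occurred for Aqr, Ddx5 and Rnaseh2a, a GC box also for Rnaseh2a, and none of the 7 for Rnaseh2c. GC content was 61.7% for the Dhx9 window, 64.0% for Top1 and 68.3% for Ddx5, against a median of 52.7% over all windows. Such matches describe the letters of these windows and were not tested against the expression values.

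Per kilobase of merged exons, Ddx5 was the most abundant of the 9 transcripts and Rnaseh1 the least. The mean over 6 libraries was 199 CPM per kilobase for Ddx5 (range 189 to 207), 49.2 for Dhx9 (41.5 to 59.1), 39.1 for Xrn2 (33.7 to 48.2), 32.7 for Top1 (26.2 to 39.1) and 28.4 for Rnaseh2c (23.3 to 33.8). Lower levels were found for Aqr, at 11.6 CPM per kilobase (9.52 to 13.9), Rnaseh2a, at 8.49 (6.60 to 10.9), Rnaseh2b, at 6.21 (5.08 to 7.44), and Rnaseh1, at 3.78 (3.01 to 4.62). The highest mean was 52.6-fold the lowest. Ddx5 lay apart from Dhx9, Rnaseh2c from Aqr, and Rnaseh2b from Rnaseh1, whereas the ranges of all other neighbours in this order overlapped. Within single libraries, Dhx9 was above Xrn2, Xrn2 above Top1, Aqr above Rnaseh2a and Rnaseh2a above Rnaseh2b in all 6. Top1 was above Rnaseh2c in 5 of them. Scaled by the longest coding transcript instead, the order became Ddx5 (322 CPM per kilobase), Dhx9 (102), Top1 (88.5), Xrn2 (45.4), Rnaseh2c (43.3), Aqr (28.1), Rnaseh2b (26.0), Rnaseh2a (9.99) and Rnaseh1 (6.72). Top1 and Xrn2 thus changed places, as did Rnaseh2a and Rnaseh2b, so the order inside these pairs depends on which transcript length applies.

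**Figure D1:**
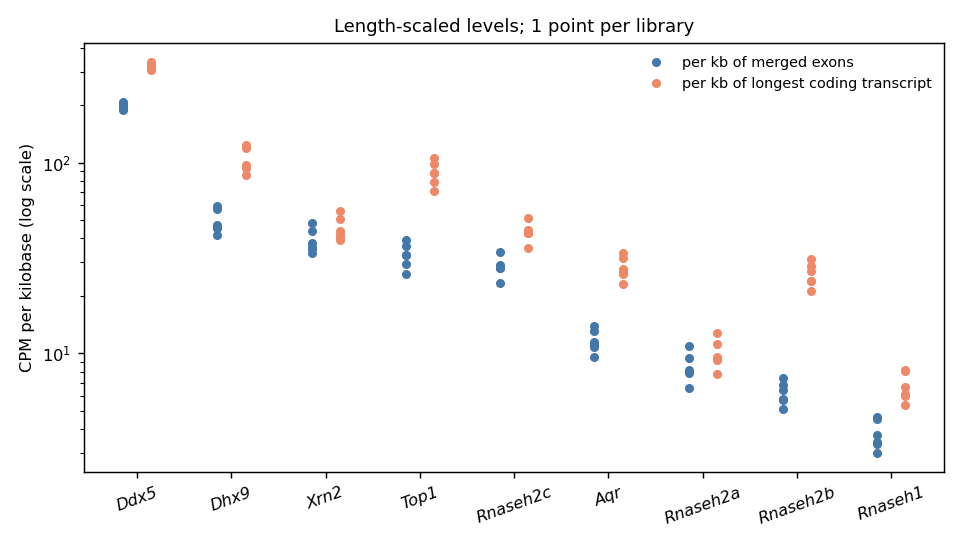
Level of each enzyme in CPM per kilobase (log scale), 1 point for each of the 6 libraries, scaled by merged exons (blue) or by the longest coding transcript (orange). Ddx5 is highest (means 199 and 322) and Rnaseh1 lowest (3.78 and 6.72) on both scales.

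The comparison of KO with WT asks whether the transcript levels of these enzymes differ between cells with and without the Phf2 deletion. None of the 9 was called at an adjusted p under 0.05, against 0.0585% of all genes tested, and none had an unadjusted p under 0.05, against 5.81% of all genes. With KO 2 and KO 3 summed 0 of 9 were called, against 4.94% of all genes. With the replicate number as a block 0 of 9 were called, against 9.79% of all genes, and 2 of 9 (Rnaseh2c and Top1) had an unadjusted p under 0.05, against 23.7% of all genes. DESeq2 also called 0 of 9, without the block (1.91% of all genes) and with it (9.27%), where 0 and 2 of 9 had an unadjusted p under 0.05. The fitted difference was above 0 for 8 of 9, against 51.3% of all genes, with a median log2 fold change of 0.12 (all genes 0.005). Without KO 1 the median was −0.001 and 4 of 9 were above 0, without WT 1 it was 0.24 with 9 of 9 above 0, and without WT 2 it was 0.06 with 8 of 9 above 0. The levels of the 9 genes were correlated across libraries, so the 8 are not independent observations. The 27 ratios of a KO library to the WT library of the same number ran from 0.898 to 1.27, and 22 of them were above 1. Numbers 2 and 3 were not told apart by the data, so their ratios are not those of known pairs. These are whole-culture measurements, in which a different share of a cell type and a different amount of RNA per cell cannot be told apart. The summed level of 6 astrocyte markers was 353 to 522 CPM in WT and 218 to 255 in KO, and its part in these values was not tested. Single astrocyte markers differed in range over the 6 libraries, with Gfap at 3.7 to 159 CPM and S100b at 3.04 to 4.79.

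**Figure D2:**
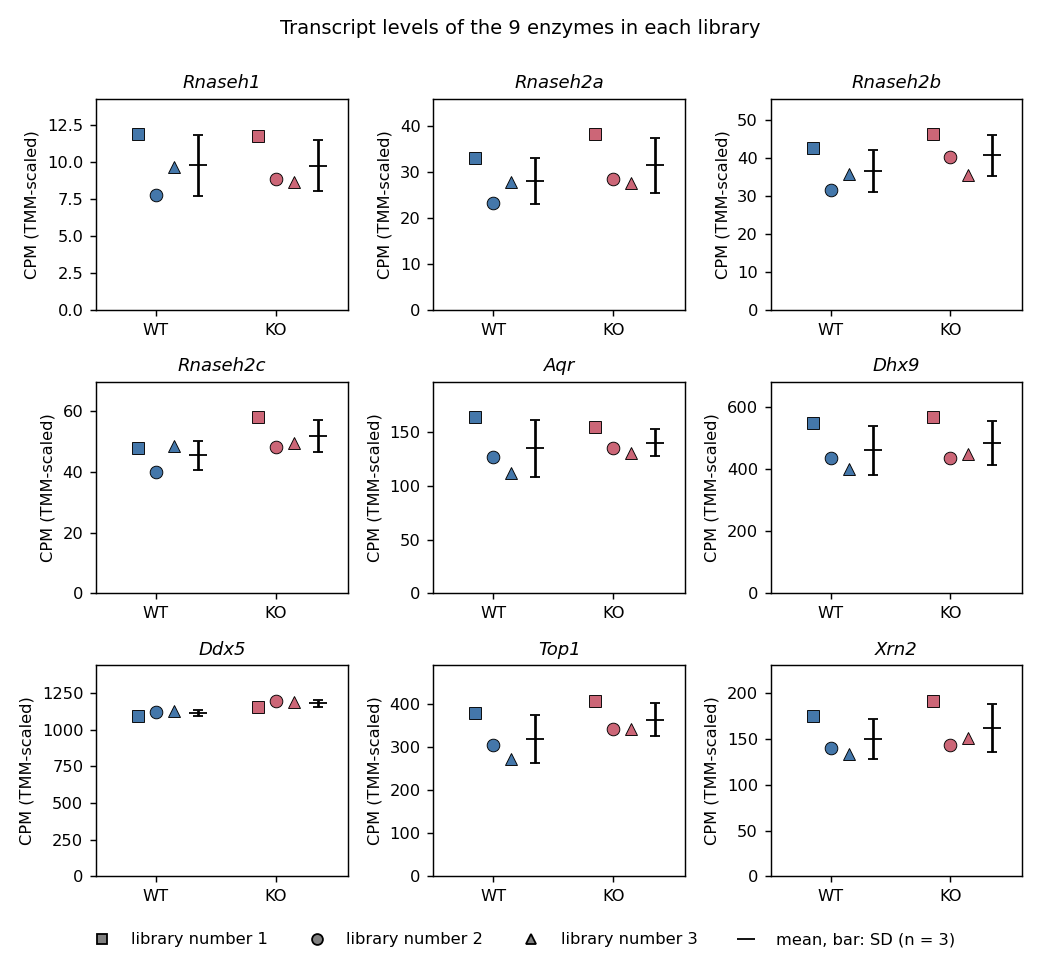
TMM-scaled CPM of each enzyme in every library (square, number 1; circle, number 2; triangle, number 3) with the mean and SD of the 3 WT (blue) and 3 KO (red) libraries. The squares are highest in WT and in KO for 7 of the 9 genes, and only for Ddx5 does every KO library lie above every WT library.

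Rnaseh1 encodes the ribonuclease H that works as a single chain in nucleus and mitochondria, and is annotated at chr12:28649602-28659589 on GRCm38 (plus strand). Its level was 11.9, 7.78 and 9.66 CPM in WT libraries 1 to 3 and 11.8, 8.89 and 8.68 CPM in KO libraries 1 to 3. The libraries numbered 1 were high in both groups, and the groups overlapped. Group means were 9.79 ± 2.08 CPM in WT and 9.77 ± 1.72 in KO (SD, n = 3), a log2 fold change of −0.0032 ± 0.216 (SE, edgeR adjusted p = 0.999). The 95% interval ran from −0.52 to 0.52, which is a 0.695-fold to 1.43-fold level in KO. With the block it narrowed to −0.24 to 0.25.

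Ribonuclease H2, the main enzyme of this kind in mammalian nuclei, is built from a catalytic subunit (Rnaseh2a) and accessory subunits (Rnaseh2b and Rnaseh2c), and it also removes single ribonucleotides from DNA. Rnaseh2a, at chr8:84956610-84969767 (minus strand), was at 33.2, 23.2 and 27.9 CPM in WT libraries 1 to 3 and at 38.3, 28.5 and 27.6 CPM in KO libraries 1 to 3. Rnaseh2b, at chr14:62292589-62372992 (plus strand), gave 42.7, 31.7 and 35.9 CPM in WT and 46.4, 40.3 and 35.7 CPM in KO. For both subunits KO 1 was the highest library and WT 2 the lowest, and the KO and WT ranges overlapped. The log2 fold changes were 0.16 ± 0.194 (SE) for Rnaseh2a and 0.15 ± 0.159 for Rnaseh2b, each with an edgeR adjusted p of 0.999. With the block, the adjusted p was 0.275 for Rnaseh2a and 0.304 for Rnaseh2b.

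Rnaseh2c, at chr19:5601873-5607019 (plus strand), was at 48.0, 40 and 48.5 CPM in WT libraries 1 to 3 and at 58.0, 48.3 and 49.6 CPM in KO libraries 1 to 3. KO 1 stood above all other libraries, whereas KO 2 lay below WT 3. Means were 45.5 ± 4.77 CPM in WT and 51.9 ± 5.25 in KO (SD, n = 3). The log2 fold change was 0.19 ± 0.129 (SE) with an edgeR adjusted p of 0.999, and with the block 0.19 ± 0.0756, with an unadjusted p of 0.0288 and an adjusted p of 0.151. Exons of Kat5, which encodes an acetyltransferase, cover 426 bases (24.8%) of the Rnaseh2c exons from the opposite strand. The strand setting of the counting was not stated, so reads from that stretch could have been counted for either gene. The table held 14422 counts for Kat5 and 12203 for Rnaseh2c over the 6 libraries. Rnaseh2a exons overlap those of Prdx2 on the opposite strand by 177 bases (5.04%) and those of Gm49661 on the same strand by 339 bases (9.66%).

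The ratio of the catalytic to an accessory subunit did not separate the groups. Rnaseh2a over Rnaseh2b was 0.762 ± 0.0276 in WT and 0.768 ± 0.0582 in KO (SD, n = 3, ratio of CPM), and Rnaseh2a over Rnaseh2c was 0.616 ± 0.067 in WT and 0.602 ± 0.0533 in KO. Rnaseh2b over Rnaseh2c was 0.808 ± 0.076 in WT and 0.785 ± 0.0601 in KO. Which of Rnaseh2a and Rnaseh2b is the more abundant per kilobase turned on the length used, with a WT ratio of 1.36 by merged exons and of 0.382 by the longest coding transcript.

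Aqr encodes the intron-binding helicase Aquarius of the spliceosome, at chr2:114101170-114187024 (minus strand). It was at 164, 127 and 112 CPM in WT libraries 1 to 3 and at 155, 135 and 131 CPM in KO libraries 1 to 3. WT 1 was the highest library and WT 3 the lowest, so the KO libraries lay inside the WT range. The log2 fold change was 0.06 ± 0.161 (SE, edgeR adjusted p = 0.999), with a 95% interval from −0.33 to 0.45.

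Dhx9, which encodes a helicase that unwinds RNA-DNA hybrids and structured RNA, lies at chr1:153455758-153487660 (minus strand), and its promoter is printed above. It was at 548, 435 and 399 CPM in WT libraries 1 to 3 and at 567, 436 and 449 CPM in KO libraries 1 to 3. The libraries numbered 1 exceeded all others, and for number 2 the KO and WT values were nearly equal, with a ratio of 1.00. The log2 fold change was 0.07 ± 0.166 (SE, edgeR adjusted p = 0.999), with a 95% interval from −0.33 to 0.47.

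Ddx5 encodes a DEAD-box helicase that acts in splicing and as a transcriptional cofactor, at chr11:106780355-106789185 (minus strand). It was at 1092, 1120.0 and 1127 CPM in WT libraries 1 to 3 and at 1153, 1197 and 1190.1 CPM in KO libraries 1 to 3. Every KO library was above every WT library, which held for Ddx5 alone among the 9 and for 4.49% of all genes tested (11.2% had groups apart in either direction). The KO to WT ratio was 1.06, 1.07 and 1.06 for numbers 1, 2 and 3. The log2 fold change of 0.08 ± 0.081 (SE) was not called, with an edgeR adjusted p of 0.999, or 0.496 with the block. The 95% interval of the unblocked fit, from −0.11 to 0.28, reached a 1.21-fold level in KO. Without KO 2 it reached a 1.29-fold level. A processed pseudogene, Gm12183, matches 1848 bases of the longest Ddx5 coding transcript at 98.5% identity, and Gm15703 matches 901 bases of Rnaseh2a at 93.8%. Neither pseudogene has an entry of its own in the count table, so reads from them could have been assigned to Ddx5 and Rnaseh2a, and both levels are uncertain to that extent.

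Top1, the nuclear topoisomerase I gene at chr2:160645888-160722764 (plus strand), was at 379.8, 305 and 273 CPM in WT libraries 1 to 3 and at 408, 342 and 341 CPM in KO libraries 1 to 3. For each replicate number the KO library was above the WT library, with ratios of 1.07, 1.12 and 1.25, but WT 1 exceeded KO 2 and KO 3. Means were 319 ± 54.8 CPM in WT and 364 ± 38.5 in KO (SD, n = 3). The log2 fold change was 0.19 ± 0.153 (SE, edgeR adjusted p = 0.999). With the block it was 0.20 ± 0.0673, with an unadjusted p of 0.0158, an adjusted p of 0.104 and a 95% interval from 0.05 to 0.35. The lowest adjusted p of any of the 9 genes in any setting was 0.08, for Top1 in DESeq2 with the block.

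Xrn2, at chr2:147012996-147078000 (plus strand), encodes the nuclear exonuclease that trails the polymerase at termination. It was at 175, 139.8 and 134 CPM in WT libraries 1 to 3 and at 192, 143 and 151 CPM in KO libraries 1 to 3. KO 1 and WT 1 were the highest libraries, and the groups overlapped. The log2 fold change was 0.12 ± 0.161 (SE) with an edgeR adjusted p of 0.999, and 0.11 ± 0.0615 with the block (adjusted p = 0.306).

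**Figure D3:**
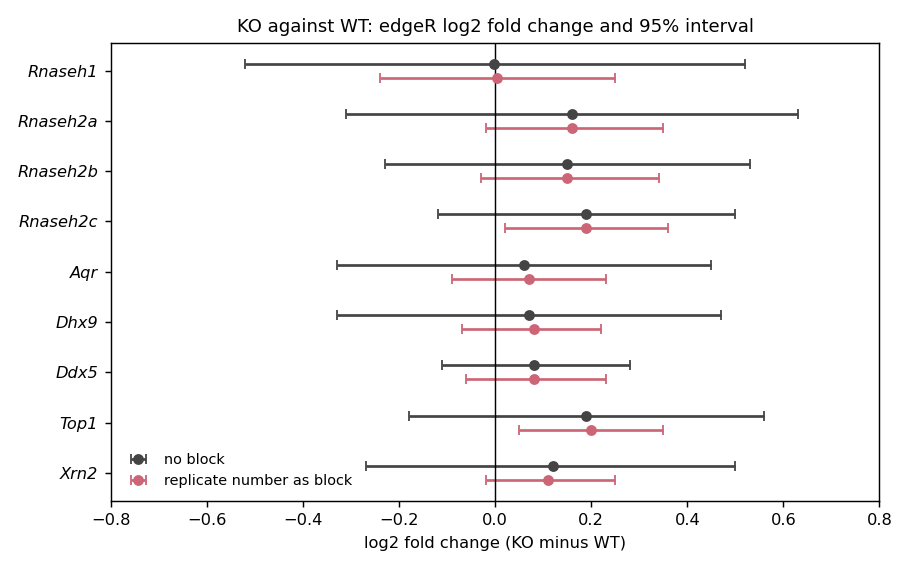
Log2 fold change of KO against WT with its 95% interval for each enzyme, from edgeR without a block (dark) and with the replicate number as a block (red). All 9 intervals include 0 without the block, and with it those of Rnaseh2c (0.02 to 0.36) and Top1 (0.05 to 0.35) do not.

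More of the enzymes were called by replicate number (7 of 9) than by genotype (0 of 9), and the same held for all genes. By genotype 0.0585% of all genes were called without the block and 9.79% with it, fewer than by number. The unblocked fit by genotype had no term for number, whereas the fit by number had one for genotype. The libraries numbered 1 (WT 1 and KO 1) were compared with the other 4, with the genotype as a covariate. The split was made because earlier results of these data had shown it, so the calls describe these libraries and are no test of a condition. Of the 9 enzymes, 7 were called higher in the libraries numbered 1 and 0 lower, where 28.2% of all genes were called higher and 29.4% lower. The log2 differences of the called genes were 0.43 ± 0.108 (SE) for Rnaseh1, 0.41 ± 0.0846 for Rnaseh2a, 0.38 ± 0.0599 for Dhx9, 0.37 ± 0.054 for Xrn2, 0.34 ± 0.0748 for Aqr, 0.33 ± 0.0656 for Top1 and 0.31 ± 0.0799 for Rnaseh2b. Their edgeR adjusted p values ran from 0.000467 (Xrn2) to 0.00913 (Rnaseh2b). Rnaseh2c was at 0.18 ± 0.0851 with an edgeR adjusted p of 0.0991. Ddx5 was at −0.05 ± 0.0575 with an edgeR adjusted p of 0.525 and a 95% interval from −0.18 to 0.09, which lies below the estimates of the 7 called genes; the differences between genes were not tested. Leaving out WT 1 left 3 of the 7 called (Rnaseh2a, Dhx9 and Xrn2, where 18.0% of all genes were called higher), and leaving out KO 1 left 4 (Aqr, Top1, Dhx9 and Xrn2, where 19.9% were). In those fits the remaining library numbered 1 is assumed to vary as the other libraries do.

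**Figure D4:**
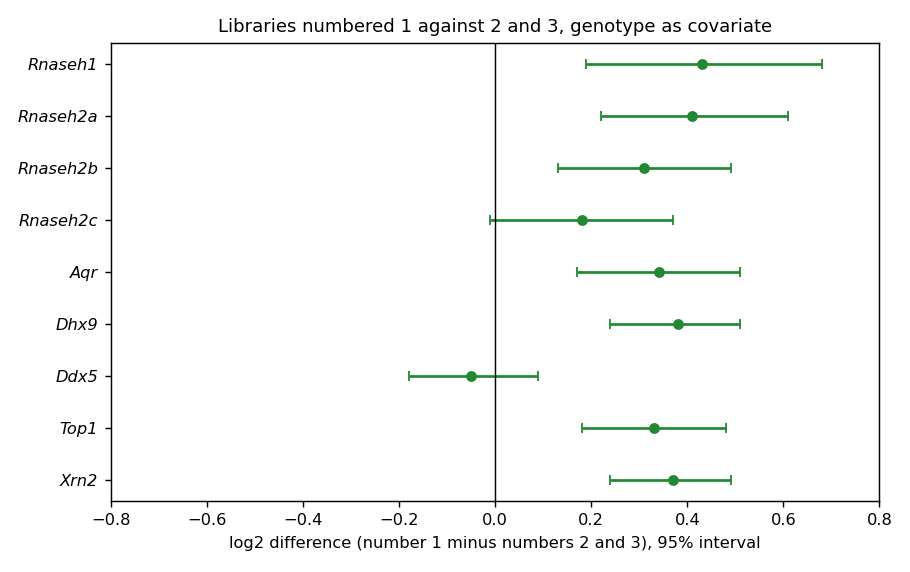
Log2 difference between the libraries numbered 1 and those numbered 2 and 3, with the genotype as covariate and the 95% interval, for each enzyme. The intervals of 7 genes lie above 0, while those of Rnaseh2c (−0.01 to 0.37) and Ddx5 (−0.18 to 0.09) include it.

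Other genes differed between the same libraries. The 20 S phase genes listed (Mcm2 to Mcm7, Pcna, Rrm1, Rrm2 and others that act in DNA replication) were all called higher in the libraries numbered 1. Of all genes, 28.2% were called higher there. The median log2 difference of the S phase genes was 0.68. Summed over these genes, the level was 3889.6 CPM in WT 1 and 4040.3 in KO 1, against 2136 to 2724 in the other 4 libraries. Summed markers of neurons were 765 CPM in both libraries numbered 1 and 548 to 639.8 in the others. Most of that sum was Map2 (448 to 734 CPM), while Tubb3 and Dcx stayed at or under 9.13 CPM. Summed markers of neural stem cells were at 9673 to 9727 CPM in the libraries numbered 1 and at 10572 to 11398 in the others. The part of these differences in the values of the enzymes was not tested.

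Across the 6 libraries the log2 CPM of the 8 enzymes other than Ddx5 went together, with Pearson r from 0.407 (Rnaseh2c with Aqr) to 0.983 (Dhx9 with Xrn2) and a median of 0.823 over 28 pairs. Ddx5 with each of the other 8 gave −0.378 to 0.316, with a median of −0.111. These correlations rest on 6 libraries that share the split by number and are given as a description. Of the 9297 genes that averaged 10 CPM or more, the gene most like Dhx9 was Hmgxb3 (r = 0.999) and the next Otud4 (0.998), and 930 genes exceeded 0.95. Top1 was most like Pole (0.999), which encodes the catalytic subunit of DNA polymerase epsilon, and Mob1a (0.998). Rnaseh2a was most like Ube2s (0.998), which encodes a ubiquitin-conjugating enzyme of the anaphase-promoting complex, and Srsf3 (0.997), a splicing factor gene. The other leading pairs were Klhdc4 and Cmss1 for Rnaseh1 (both 0.996), Kin (0.991) and Nmral1 (0.989) for Rnaseh2b, Smarce1 (0.99) and Ppia (0.987) for Rnaseh2c, Slain2 (0.996) and Abhd13 (0.995) for Aqr, and Chml (0.997) and Klhl2 (0.996) for Xrn2. Ddx5 was most like Skap2 (0.997), an adaptor protein gene, and Rtn1 (0.989), a reticulon gene, and 52 genes exceeded 0.95. The number above 0.95 was 27 for Rnaseh2c, 112 for Rnaseh2b, 362 for Rnaseh2a and 393 for Aqr. It was 521 for Top1, 534 for Rnaseh1 and 752 for Xrn2. Skap2 was at 54.8, 66.7 and 74.0 CPM in WT libraries 1 to 3 and at 85.7, 111 and 109.7 in KO libraries 1 to 3, so that it shared with Ddx5 the lower value of number 1 in each group and KO values above all WT values.

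A list of 64 other genes of the pathway covered hybrid helicases, RNA export and splicing factors, topoisomerases, termination and RNA decay factors, and proteins that bind hybrids or repair replication forks, and all 64 were tested. Without the block 0 of 64 were called for KO against WT, and 0 had an unadjusted p under 0.05. The median log2 fold change was 0.09, against 0.005 for all genes, and with 1 library left out it ran from −0.02 (without KO 1) to 0.27 (without WT 1). DESeq2 without the block also called 0. With the replicate number as a block 5 of 64 were called higher in KO and 0 lower, against 9.79% of all genes called in either direction. Counting both directions, the list thus held no larger a share of calls in this fit than all genes did. The share of all genes called higher alone was not computed. DESeq2 with the block called 9 of 64, all higher in KO, a larger share than the 9.27% of all genes. By group, edgeR with the block called 1 of 17 hybrid helicases, 0 of 15 export and splicing genes and 1 of 6 topoisomerases. It also called 0 of 8 termination and decay genes and 3 of 18 hybrid-binding and fork repair genes.

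The 5 genes called higher in KO with the block were Blm, Fanci, Brca2, Top2a and Lig1. Brca2, which loads the recombinase at broken forks, was at 32.0, 26.8 and 19.1 CPM in WT libraries 1 to 3 and at 38.5, 30.7 and 34.0 in KO libraries 1 to 3, a blocked log2 fold change of 0.43 ± 0.116 (SE, edgeR adjusted p = 0.0454). Top2a, the topoisomerase II gene of dividing cells, was at 821, 545 and 495 CPM in WT and at 870, 707 and 732 in KO, with 0.34 ± 0.0899 (edgeR adjusted p = 0.0413). In both genes every KO library exceeded the WT library of its number, while WT 1 kept the groups overlapping. Blm, the helicase gene of the Bloom syndrome complex, gave 0.33 ± 0.0807 (edgeR adjusted p = 0.0323). Fanci, of the Fanconi anaemia pathway, gave 0.30 ± 0.0752 (edgeR adjusted p = 0.0322), and Lig1, the DNA ligase that joins Okazaki fragments, 0.27 ± 0.0729 (edgeR adjusted p = 0.0445). Of the S phase genes, 6 of 20 were called higher in KO with the block and 0 lower, against 9.79% of all genes called in either direction. Their median log2 fold change was 0.22 with the block. Without the block, or with KO 2 and KO 3 summed, 0 of 20 were called. With the block, 3 were called under upper-quartile scaling and 9 under RLE scaling. DESeq2 with the block called 8 (9.27% of all genes). With numbers 2 and 3 only 7 were called (5.4% of all genes), and with number 1 as the block 6. Without the block, the median with 1 library left out ran from 0.01 (without KO 1) to 0.53 (without WT 1). The part of the S phase genes in the 5 calls was not tested. Of the pathway list, 3 genes were called with numbers 2 and 3 only (Top2a, Fancd2 and Lig1, against 5.4% of all genes). The number was 2 with the block and upper-quartile scaling (9.57%), and 0 with the counts of KO 2 and KO 3 summed (4.94%).

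Of the 4 genes of the list with the highest mean CPM, not scaled by length, Top2a alone was called with the replicate block, and none without it (edgeR adjusted p = 0.999 without it, and 0.182 with KO 2 and KO 3 summed). Ddx17, the closest relative of Ddx5, had means of 517 CPM in WT and 537 in KO, a blocked log2 fold change of 0.06 ± 0.0847 (edgeR adjusted p = 0.71). The splicing factor gene Srsf1 had means of 508 and 539 CPM, and 0.09 ± 0.0646 (edgeR adjusted p = 0.431). Srsf2, of the same family, had means of 386 and 419 CPM. In the comparison by replicate number, 46 of the 64 were called higher in the libraries numbered 1 (28.2% of all genes) and 2 lower (29.4%), Recql5 at −0.41 and Ercc5 at −0.30, with a median log2 difference of 0.35. The median was 0.30 without WT 1 and 0.42 without KO 1. The largest differences were those of Ddx21 (1.16), Dna2 (1.15) and Ddx18 (1.03).

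**Figure D5:**
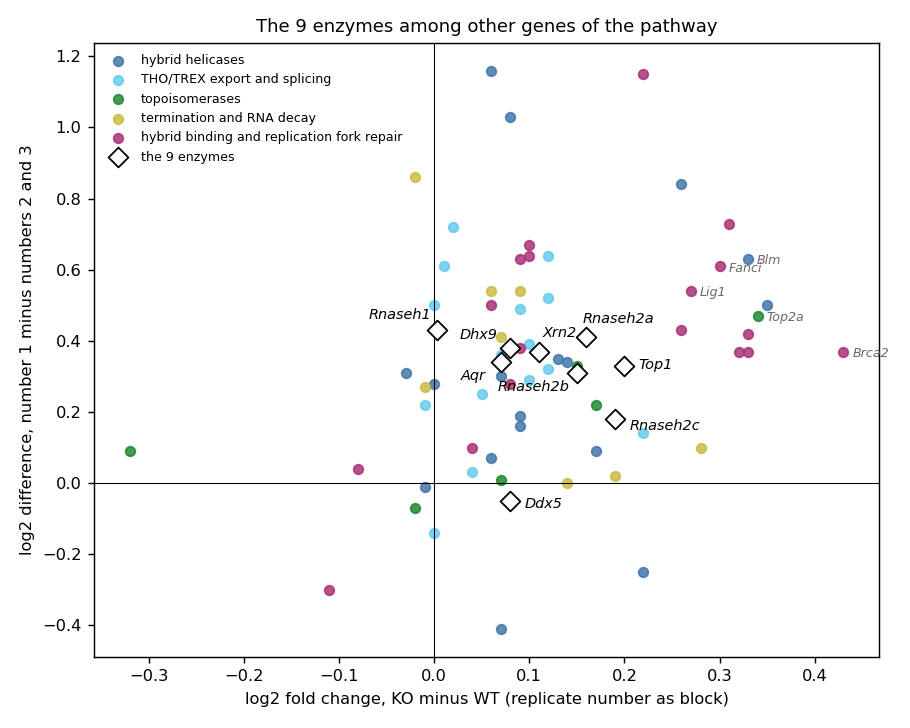
Each point is a gene, placed by its log2 fold change of KO against WT with the replicate block (horizontal) and its log2 difference between the libraries numbered 1 and the others (vertical), for the 9 enzymes (open diamonds) and the 64 other pathway genes (colours by group). The 5 labelled circles were called in KO, at 0.27 to 0.43, and the diamonds lie between 0.0034 (Rnaseh1) and 0.20 (Top1) on the horizontal axis, with Ddx5 the lowest on the vertical one.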

How the data were processed

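RNA-seq was measured in 6 libraries, 3 WT and 3 KO, grouped and numbered by their titles. The deposited table holds raw whole counts for each gene symbol. The submitters' processing notes name FastQC, cutadapt, Trim Galore, Bowtie2, RSEM and the build mm10, with no role or order. Versions, annotation, strand setting and the rounding of RSEM estimates are not given there. The 9 genes, the pathway list and the other lists were chosen with earlier results of these data known.

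Counts entered edgeR 4.0.16 in R 4.3.3 as deposited. Genes were kept by filterByExpr (13683 of 24503), scaled by TMM, fitted with glmQLFit (robust) and tested with glmQLFTest, two-sided, on all 6 libraries; genes with adjusted p under 0.05 are called, and a standard error is the log2 fold change over the square root of F. DESeq2 1.42.0, other scalings, no filter, a block and each library left out were alternatives. The fits were also run on simulated counts with known changes, with and without a shift of the libraries numbered 1. Every simulated gene had the same variability, so the simulation does not show how many changes the unblocked fit finds in these libraries. The labels do not say that libraries came from separate cultures or embryos, so the p-values reflect the spread between these 6 samples alone, and that spread may be technical.

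Pairing was checked by the correlation, across genes, of deviations from the group mean. The pair numbered 1 gave 0.854, the pair numbered 2 gave 0.604 and the pair numbered 3 gave 0.58, each above 0.1, the limit for pairing. Crossed, WT 2 and KO 3 gave 0.633 and WT 3 and KO 2 gave 0.578, so numbers 2 and 3 are not told apart. Deviations in a group cancel out. With number 1 apart in both groups, numbers 2 and 3 came out positive however paired, so the limit could not test those pairs. The pairing comes from these values, not from the labels. KO 2 and KO 3 differed little, with a median chi-square of 1.02 per gene against 5.25 for WT 2 with WT 3, over genes with at least 40 counts; they were kept as 2 samples, and summing their counts was an alternative.

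Gene positions (1-based), exon and transcript lengths came from GENCODE vM21 on GRCm38, and promoters from RefSeq. Named genes were the 9, Phf2, pathway genes called without or with the block (at most 8) and the 4 with the highest mean CPM, and for each of the 9 the 2 genes with the highest Pearson r of log2 CPM (prior count 2) at a mean of at least 10 CPM. Ddx21, Dna2, Ddx18, Recql5, Ercc5, and Fancd2 were named after their values were seen.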

Additional observations from a re-analysis of the deposited data

How the results depend on the processing

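None of the 9 enzymes was called for KO against WT in any of 17 alternatives, 11 other fits and 6 with 1 library left out, with log2 fold changes from −0.16 to 0.34 and a lowest adjusted p of 0.08. Over all genes, 8 were called without a block and 1340 with the replicate block, whose numbers 2 and 3 are not shown to be pairs. DESeq2 called 262, and 1268 with the block. The number was 743 with numbers 2 and 3 only, 1445 with number 1 as the block and 688 with KO 2 and KO 3 summed. With the block it was 1310 under upper-quartile scaling and 1251 under RLE scaling. It was 0 to 21 with 1 library left out (21 without WT 1). Of the pathway list, 5 were called with the replicate block, 9 with DESeq2 and the block, 3 with numbers 2 and 3 only, 5 with number 1 as the block, and 2 and 4 with the block and upper-quartile or RLE scaling. The count of enzymes that differed by number ran from 3 to 8 with 1 library left out and was 7 under upper-quartile scaling, RLE scaling, no filter and DESeq2. Signs turned for Rnaseh1, at −0.0032 without the block, 0.0034 with the replicate block, 0.0076 with DESeq2, 0.01 with DESeq2 and the block, 0.0077 with RLE scaling, 0.0093 with numbers 2 and 3 only and 0.01 with the block and RLE scaling. With 1 library left out the log2 fold change ran from −0.16 to 0.18 for Rnaseh1, −0.0014 to 0.31 for Rnaseh2a, −0.06 to 0.24 for Aqr, −0.06 to 0.23 for Dhx9 and −0.02 to 0.25 for Xrn2. The causes were not tested. Counting error was at most 5.85% of any value of the 9 genes, and in the unblocked fit with TMM scaling their intervals reached 1.55-fold. The settings that join the block to another scaling and the omission of libraries from the comparison by number were chosen after seeing the data.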

Other observations

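Among 5 ratios between these genes that were computed after their levels had been seen, that of Rnaseh1 to Rnaseh2a, the catalytic chains of the 2 ribonucleases H, was the 1 whose groups did not overlap. It was 0.359, 0.336 and 0.347 (ratio of CPM) in WT libraries 1 to 3 and 0.307, 0.311 and 0.315 in KO libraries 1 to 3, or 0.347 ± 0.0114 in WT and 0.311 ± 0.00397 in KO (SD, n = 3). All 3 KO values lay below all 3 WT values. A two-sided exact permutation test of 3 against 3 libraries cannot go below 0.1, whatever the values. The ratio was singled out after its values were seen. Of all genes tested, 11.2% had groups that did not overlap in either direction, and no such share was computed for ratios. Counting error was 5.85% at the lowest Rnaseh1 count (292, KO 3) and 3.28% at the lowest Rnaseh2a count (927, KO 3). The SD of the KO ratios was smaller than that error, so it understates their uncertainty. The Rnaseh2a level is also uncertain because of Gm15703, as stated above. The ratios of Rnaseh2a to Rnaseh2b, Rnaseh2a to Rnaseh2c, Rnaseh2b to Rnaseh2c and Dhx9 to Ddx5 overlapped between the groups.

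Of the 64 other pathway genes, 2 had groups that did not overlap, against 11.2% of all genes tested in either direction, so the list held no more of them than the background. Top1mt, the mitochondrial topoisomerase I gene, was at 5.91, 5.26 and 5.72 CPM in WT libraries 1 to 3 and at 4.70, 4.76 and 4.10 in KO libraries 1 to 3, a log2 fold change of −0.32 ± 0.161 (SE) that edgeR did not call (adjusted p 0.999, or 0.173 with the block). Pcf11, a cleavage and termination factor gene, was at 65.3, 65.3 and 55.9 CPM in WT and at 68.5, 70.4 and 72.8 in KO, with 0.18 ± 0.103 (SE, edgeR adjusted p 0.999, or 0.174 with the block). Top1 and Top1mt thus had fitted differences of opposite sign, neither of them called, and the difference between them was not tested.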
